A study of Mus musculus with 8 samples.

Results

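Autophagy starts when a kinase complex built around ULK1 or its relative ULK2 is released from inhibition by mTORC1 or switched on by AMPK. ATG13, ATG101 and the scaffold protein RB1CC1, also called FIP200, hold that complex together and bring it to the membrane on which an autophagosome will form. ATG9A, a lipid scramblase that travels in small vesicles, provides the first membrane, and ATG2A and ATG2B then carry lipids into it from the endoplasmic reticulum. In skeletal muscle autophagy clears damaged organelles and proteins, and its loss leads to weak, degenerating fibres. The genes described here are Ulk1, Ulk2, Atg13, Rb1cc1, Atg101, Atg9a, Atg2a and Atg2b. They were picked by symbol for their place in the pathway, and all 8 were found, each on 1 probe set among 22206 on the array.

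The study knocked down Mytho, listed on the array as D230025D16Rik, in the gastrocnemius of male C57/Bl6j mice. One leg received an adeno-associated virus carrying sh-RNA MYTHO and the contralateral leg a virus carrying the sh-RNA scrmb control, both under the U6 promoter. The mice were about 10 weeks old at injection and the labels give an age of 14 weeks; muscles were taken 3 weeks after injection. Total RNA of 4 muscles per group was hybridised to Clariom S Mouse arrays, giving 8 arrays. Letters A to D stand for the animals, in the order of the numbers in the column names, each of which was read as an animal. No transgenic driver limited the hairpin to fibres, since U6 is active in any transduced cell, and each array averaged all cells of the muscle. In such bulk tissue fewer cells of a type and less RNA per cell cannot be told apart.

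Signals are on a log2 scale, so that a difference of 1 is a 2-fold change. Array medians lay between 6.39 and 6.47, and correlations between arrays of 1 group lay between 0.981 and 0.986. The targeted gene D230025D16Rik averaged 11.12 in the scrmb legs and 8.31 in the MYTHO legs, 14.2% of the scrmb level (limma adjusted p = 0.00044), and was lower in the MYTHO leg of all 4 animals. Its difference between the legs was -3.19 in animal A, -3.11 in animal B, -1.98 in animal C and -2.97 in animal D. All 6 muscle-fibre markers tested against the tissue label (among them Acta1, Ckm and Myh4) had mean signals from 18.1 to 19.93, the array's ceiling, which 2 of them reached.

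Promoter sequence is shown for the genes of membrane and lipid supply, Atg9a, Atg2a and Atg2b, so that the start regions of the lipid transfer paralogues can be read side by side. RefSeq gave a 250-base window before a transcript start for 7 of the 8 genes (mouse build GRCm38.p6). Only the bases that lie outside the annotated gene are printed, 5′ to 3′ on the gene's own strand, with CCAAT on either strand (CCAAT or ATTGG) in capitals. They are 250 bases at chr1:75192011-75192260 (minus strand) for Atg9a, 60 bases at chr19:6241418-6241477 (plus strand) for Atg2a and 194 bases at chr12:105685298-105685491 (minus strand) for Atg2b.
Atg9a: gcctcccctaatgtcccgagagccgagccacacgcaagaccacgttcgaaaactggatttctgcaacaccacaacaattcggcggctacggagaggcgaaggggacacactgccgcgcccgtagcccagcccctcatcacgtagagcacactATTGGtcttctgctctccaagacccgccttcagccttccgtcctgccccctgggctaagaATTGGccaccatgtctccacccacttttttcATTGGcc
Atg2a: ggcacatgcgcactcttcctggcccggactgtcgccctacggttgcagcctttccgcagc
Atg2b: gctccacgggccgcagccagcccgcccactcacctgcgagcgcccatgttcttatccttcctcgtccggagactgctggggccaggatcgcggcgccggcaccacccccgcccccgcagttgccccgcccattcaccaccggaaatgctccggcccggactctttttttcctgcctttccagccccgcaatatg
The whole 250-base windows of Atg9a and Atg2a each held 3 CCAAT boxes, and those of Atg2b, Ulk1, Ulk2, Atg13 and Atg101 held 0. No direction of change was established for any of the 7 genes, so the boxes are not set against one. Among all 32851 windows given by RefSeq, 33.8% held at least 1 and 2.79% held 3 or more. For Atg2a the boxes lay in the stretch that overlaps the annotated gene. Neither the forkhead letters GTAAACA, known for binding FoxO factors, nor the E-box CACGTG, known for binding TFEB, occurred on either strand in any of the 7 windows. These letters occurred in 3.17% and 6.02% of all windows. The GC box GGGCGG, found on either strand in 32.7% of all windows, occurred 5 times in the whole window of Ulk1, 3 times in that of Atg2b and 1 time in that of Ulk2, where it lay in the stretch overlapping the annotated gene. Windows of the 7 genes ran from 46.4% to 72.8% G and C with 14 to 31 CpG, against medians of 52.4% and 6 over all windows. The motifs were chosen with the sequences in view, and a match describes letters only.

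None of the 8 genes changed beyond the spread between arrays. With an adjusted p under 0.05, 0 of 8 were called, against 0.027% of all probe sets, and at an unadjusted p under 0.05 also 0 of 8, against 12.4% of all probe sets. By direction that was 0 higher, against 4.81% of all probe sets, and 0 lower, against 7.58%. The study's own threshold asks for both a 2-fold change or more and an unadjusted p under 0.05, and 0 of 8 passed it, against 1.51% of all probe sets. In every one of the 8 genes the scrmb and MYTHO arrays overlapped, while 6.46% of all probe sets had groups that did not. Mean signals were higher in the MYTHO legs for 6 genes, beside 49.0% of all probe sets, and lower for Rb1cc1 and Atg2b. The median log2 fold change over the 8 genes was 0.19, beside -0.005 over all probe sets. Both depended on single arrays: with each in turn left out, 4 to 7 genes were higher and the median lay between 0.05 and 0.27, with 4 genes and 0.05 without scrmb C. Median centring made Rb1cc1 a further higher gene, at 0.005. With all arrays in the fit, limma p-values and intervals rest on 4 muscles per group. Each variance was also moderated by eBayes towards those of all probe sets.

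Among the kinases, Ulk1 (chr5:110784489-110810120) phosphorylates Beclin 1, ATG9A and other autophagy proteins. Its signal in scrmb legs A to D was 8.74, 8.77, 8.20 and 8.99, and in MYTHO legs A to D it was 8.46, 8.96, 8.59 and 9.22. The lowest array of all was scrmb C and the highest MYTHO D, and the groups overlapped over most of their range. The mean went from 8.68 ± 0.34 to 8.81 ± 0.35 (SD, n = 4), which is 0.13 on the log2 scale with SE 0.23 (limma adjusted p = 0.866).

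Ulk2 (chr11:61775598-61855334) encodes the kinase that can stand in for ULK1. Signals were 11.56, 11.90, 11.93 and 12.26 in scrmb legs A to D and 12.27, 12.37, 12.10 and 12.20 in MYTHO legs A to D. The 4 MYTHO arrays sat close together at the upper end, and only scrmb D reached into their range. The mean was 11.91 ± 0.29 in scrmb and 12.24 ± 0.11 in MYTHO (SD, n = 4). Their log2 difference of 0.32, SE 0.19, is a ratio of 1.25 (limma adjusted p = 0.521). Its 95% interval ran from -0.09 to 0.73.

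Whether the kinases changed differently was tested on the difference Ulk1 minus Ulk2 within each array. Only the change of such a difference is meaningful, since probe sets differ in brightness. That change was -0.19 from scrmb to MYTHO, with exact permutation p = 0.486 over 70 relabellings, also 0.486 after adjustment over the 2 pairs tested here. By animal it was -0.99, -0.28, 0.22 and 0.29 for A to D. The sign thus split between the animals, and flipping signs within animals gave an exact p of 0.75. With each array in turn left out the change lay between -0.35 (without scrmb C) and -0.05 (without scrmb A), and without both legs of animal A it was 0.08.

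Of the partners that hold the kinase, Atg13 (chr2:91674612-91710597), the adaptor that mTORC1 phosphorylates, had signals of 6.34, 6.58, 6.26 and 6.12 in scrmb legs A to D. In MYTHO legs A to D they were 6.93, 6.40, 5.69 and 6.34. MYTHO A and MYTHO C were the highest and the lowest of the 8 arrays, so the knockdown group enclosed the control group. The means were 6.33 ± 0.19 and 6.34 ± 0.51 (SD, n = 4), and differed by 0.02 on the log2 scale with SE 0.25 (limma adjusted p = 0.990).

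Rb1cc1 (chr1:6214634-6276375) encodes the scaffold that ties the kinase to the growing membrane and to cargo receptors. It gave 10.33, 10.47, 10.15 and 10.49 in scrmb legs A to D and 10.40, 10.35, 10.25 and 10.30 in MYTHO legs A to D. This was the tightest of the 8 genes, with a pooled SD within groups of 0.12 and all MYTHO values inside the scrmb range. The 95% interval of its change, -0.39 to 0.32, was the narrowest of the 8 and held 0 near its middle (limma adjusted p = 0.959).

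Atg101 (chr15:101284301-101290947) encodes the partner that stabilises ATG13. The scrmb legs A to D gave 6.60, 7.53, 7.35 and 6.68, and the MYTHO legs A to D gave 7.56, 7.31, 7.75 and 7.21. Scrmb arrays fell into a low pair, A and D, and a high pair, B and C, and the MYTHO arrays lay around the high pair. The mean was 7.04 ± 0.47 in scrmb and 7.46 ± 0.24 in MYTHO (SD, n = 4). This log2 difference of 0.42, SE 0.24, a ratio of 1.34, was within the spread (limma adjusted p = 0.518). Leaving out scrmb A gave 0.27, and leaving out scrmb B gave 0.58, unadjusted p = 0.0354, with an adjusted p of 0.473 and a range of 0.421 to 0.812 over all alternatives.

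**Figure D1:**
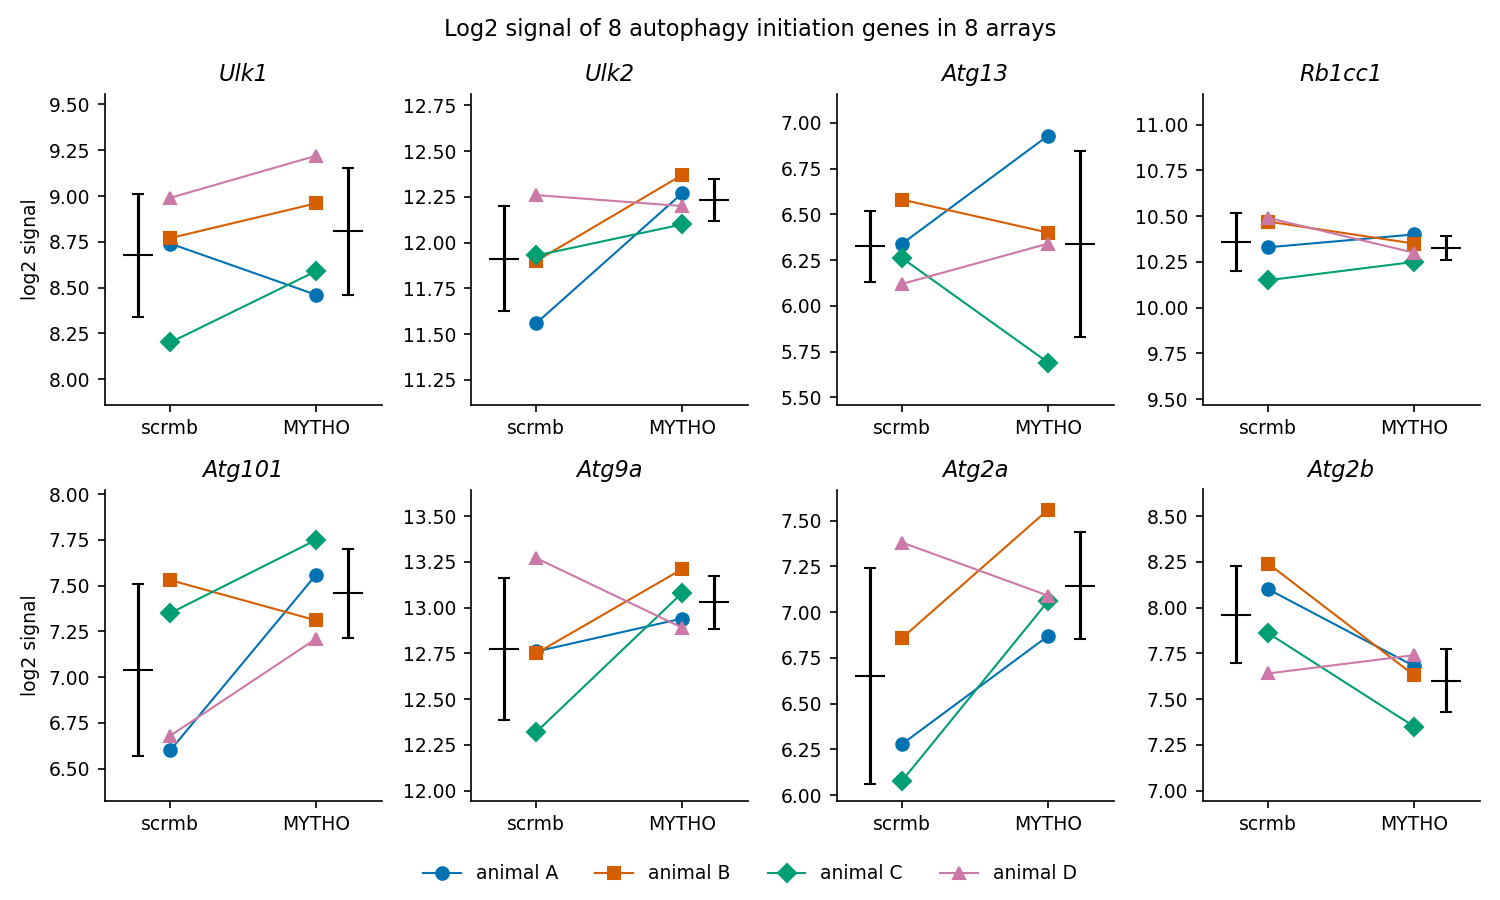
Log2 signal (vertical axis, the same span for every gene around its own centre) of the 8 genes in the 4 scrmb and 4 MYTHO arrays. Lines join the legs of 1 animal, and bars beside the points are the mean ± SD (n = 4). The groups overlap for every gene, and Ulk2, Atg9a, Atg2a and Atg2b show animal D running against animals A, B and C.

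Turning to membrane supply, Atg9a (chr1:75180861-75192010) was measured at 12.76, 12.75, 12.32 and 13.27 in scrmb legs A to D. The MYTHO legs A to D gave 12.94, 13.21, 13.08 and 12.89. Scrmb C was the lowest and scrmb D the highest of all arrays, with the MYTHO arrays between them. The mean was 12.78 ± 0.39 in scrmb and 13.03 ± 0.14 in MYTHO (SD, n = 4), a log2 difference of 0.26 with SE 0.21 (limma adjusted p = 0.682).

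Atg2a (chr19:6241478-6262304), the first of the lipid transfer proteins, had the largest estimate of the 8 genes with all arrays in the fit. Scrmb legs A to D gave 6.28, 6.86, 6.08 and 7.38, and MYTHO legs A to D gave 6.87, 7.56, 7.06 and 7.09. All MYTHO arrays exceeded scrmb A, B and C, while scrmb D was higher than 3 of them. The mean was 6.65 ± 0.59 in scrmb and 7.14 ± 0.29 in MYTHO (SD, n = 4). The log2 difference was 0.50 with SE 0.28, a ratio of 1.41 (limma adjusted p = 0.506). The estimate for Atg101 was the larger one without scrmb B, scrmb C or MYTHO B, and without both legs of animal B (0.63 against 0.43) or of animal C (0.42 against 0.33). The 95% interval, -0.11 to 1.10, was the only one of the 8 to extend past a 2-fold change. For the other 7 genes it lay within 2-fold, as it did for 84.2% of all probe sets.

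Atg2b (chr12:105613539-105685297) encodes the second lipid transfer protein, which overlaps with ATG2A in function. Signals were 8.10, 8.24, 7.86 and 7.64 in scrmb legs A to D and 7.68, 7.63, 7.35 and 7.74 in MYTHO legs A to D. Here every MYTHO array lay below scrmb A, B and C, and scrmb D fell among the MYTHO arrays. The mean went from 7.96 ± 0.26 to 7.60 ± 0.17 (SD, n = 4), 77.9% of the scrmb level or -0.36 on the log2 scale, with SE 0.19 (limma adjusted p = 0.474, the lowest of the 8).

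**Figure D2:**
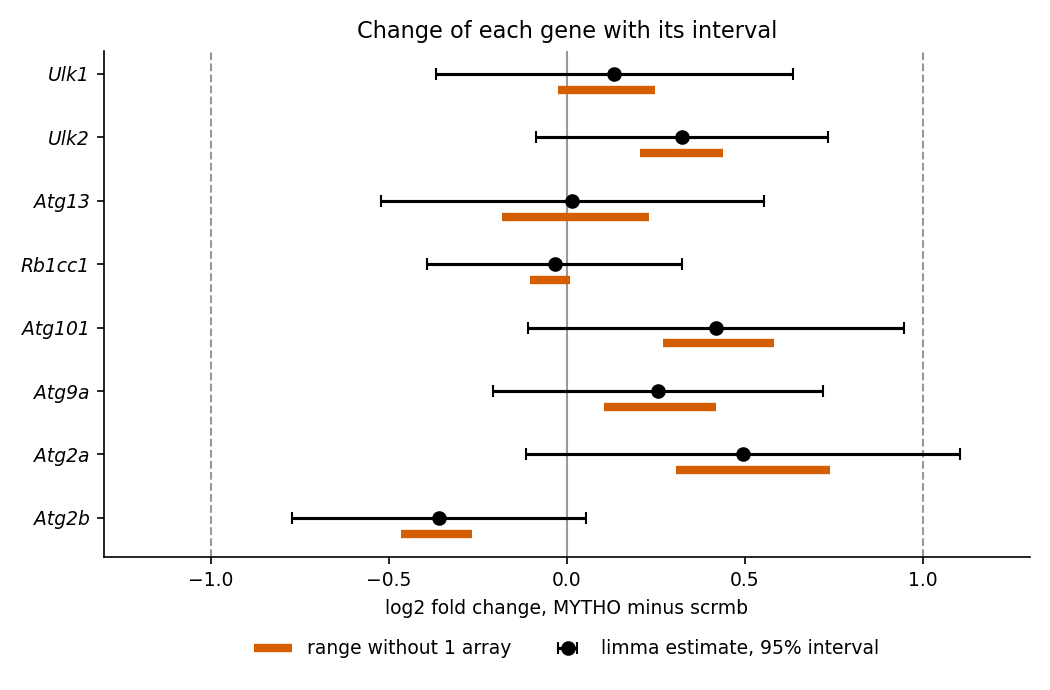
Log2 fold change, MYTHO minus scrmb (horizontal axis), of the 8 genes. Points and black bars are the limma estimate and its 95% interval, orange bars the range of estimates when each array in turn is left out, and dashed lines mark a 2-fold change. Every black bar crosses 0, and only that of Atg2a, up to 1.10, passes a dashed line.

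The lipid transfer genes differed in sign, and the difference itself was tested. Atg2a minus Atg2b within an array was -1.82, -1.38, -1.78 and -0.26 in scrmb legs A to D and -0.81, -0.07, -0.29 and -0.65 in MYTHO legs A to D. Scrmb D was the one control array inside the MYTHO range. The change was 0.86, with exact permutation p = 0.114 over 70 relabellings and 0.229 after adjustment over the 2 pairs. Flipping signs within animals, the exact p was 0.25, where 0.125 is the smallest that 4 animals allow. With each array in turn left out the change lay between 0.685 and 1.20, with an exact p from 0.0286 to 0.2 and an adjusted p from 0.0571 to 0.4. Its upper end was reached without scrmb D, where 0.0286 is the smallest p that 3 against 4 arrays allow. Without both legs of animal A, B, C or D it was 0.80, 0.70, 0.64 and 1.27, with exact p-values of 0.3, 0.4, 0.3 and 0.1, where 0.1 is the smallest that 3 against 3 arrays allow.

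**Figure D3:**
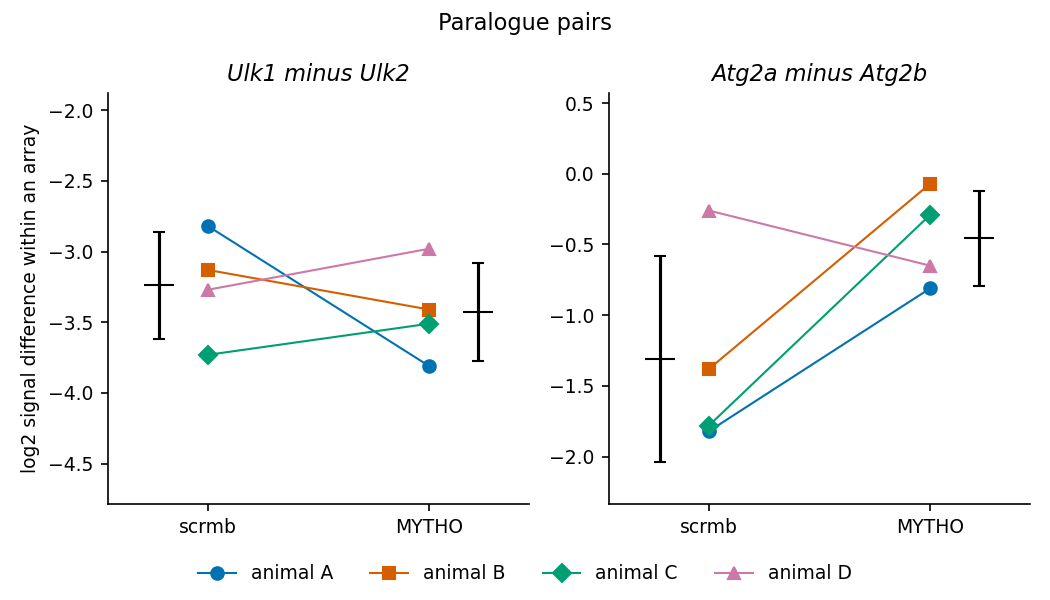
Difference of log2 signals within an array (vertical axis) for Ulk1 minus Ulk2 and Atg2a minus Atg2b in the scrmb and MYTHO legs. Lines join the legs of 1 animal, bars are the mean ± SD (n = 4), and the height of the axis itself carries no meaning because probe sets differ in brightness. For Atg2a minus Atg2b, animals A, B and C climb by 1.01, 1.31 and 1.49 while animal D drops by 0.39.

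Compared leg by leg, Ulk2 differed by 0.71, 0.47, 0.17 and -0.06 in animals A to D. Atg9a differed by 0.18, 0.46, 0.76 and -0.38, and Atg2a by 0.59, 0.70, 0.98 and -0.29. Atg2b ran the other way, at -0.42, -0.61, -0.51 and 0.10. These 4 genes had 1 sign in animals A, B and C and the other in animal D. Of all probe sets 35.3% had 1 sign in those animals, and 43.0% of these turned in animal D. For Ulk1, Atg13, Rb1cc1 and Atg101 the signs were mixed among animals A to C, so that 0 of 8 genes had the same sign in all 4 animals, beside 19.7% of all probe sets. D230025D16Rik was 8.16, 8.20, 8.80 and 8.08 in the MYTHO legs of animals A to D, and its part in these signs was not tested.

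In 7 of the 8 genes scrmb D held the highest (5 genes) or the lowest (2 genes, Atg13 and Atg2b) value among the scrmb arrays, against 51.7% of all probe sets. The SD was larger among scrmb than among MYTHO arrays in 6 of the 8 genes, against 50.4% of all probe sets. Leaving out scrmb D alone gave unadjusted p-values of 0.0412 for Ulk2, 0.0123 for Atg2a and 0.0359 for Atg2b. None was below 0.05 after adjustment (0.321, 0.200 and 0.309). Of all 22206 probe sets 1255 were then higher and 1941 lower at an unadjusted p under 0.05, against 1068 and 1683 with all arrays. Without both legs of animal D the log2 fold change was 0.76 for Atg2a (adjusted p = 0.276), -0.51 for Atg2b (0.338), 0.47 for Atg9a (0.393) and 0.45 for Ulk2 (0.397). Other arrays moved the values the other way. Without scrmb C the log2 fold change was 0.10 for Atg9a and 0.30 for Atg2a, and without both legs of animal C it was 0.09 and 0.33. Ulk2 was 0.20 without scrmb A and 0.19 without both legs of animal A. Over all alternatives the adjusted p ran from 0.200 to 0.792 for Atg2a, from 0.309 to 0.791 for Atg2b, from 0.367 to 0.941 for Atg9a and from 0.321 to 0.804 for Ulk2.

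**Figure D4:**
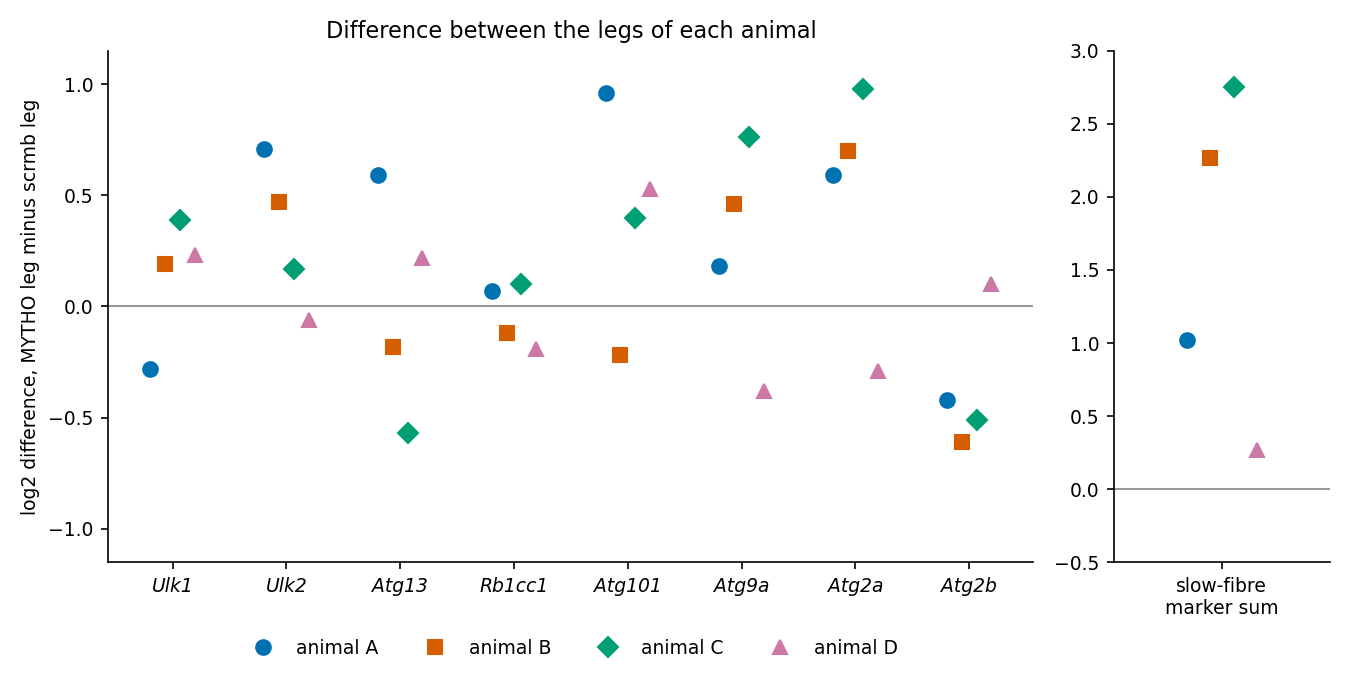
Log2 difference, MYTHO leg minus scrmb leg (vertical axis), of the 8 genes by animal, and at right, on its own axis, the log2 of the summed signal of 8 slow-fibre markers. Points of animal D lie on the other side of 0 from those of A, B and C for Ulk2, Atg9a, Atg2a and Atg2b. The slow-fibre sum was higher in every animal's MYTHO leg, by 0.27 in animal D and by 1.02 to 2.75 in the others.

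Markers of slow fibres moved with the groups at the unadjusted level. Of 8 slow-fibre markers (Myh7, Myl2, Myl3, Tnnt1, Tnni1, Tnnc1, Tpm3 and Atp2a2) 7 were higher in MYTHO legs at an unadjusted p under 0.05, and 0 at an adjusted p under 0.05. Their summed signal, on the log2 scale, ran from 15.5 to 17.6 in scrmb and from 15.7 to 18.7 in MYTHO arrays. The difference between legs was 1.02, 2.27, 2.75 and 0.27 in animals A to D, smallest in the animal in which the 4 genes above took the other sign. From animal A to C it rose, as did the differences of Atg9a and Atg2a. Those of Ulk2 fell (0.71, 0.47 and 0.17), and those of Atg2b were -0.42, -0.61 and -0.51. Endothelial markers (Pecam1, Cdh5, Kdr and Emcn) summed to 13.4 to 13.7 in scrmb and 13.9 to 14.0 in MYTHO arrays, without overlap, and 1 of 4 was higher at an unadjusted p under 0.05. Their part in the values of the 8 genes and of the genes around them, given next, was not tested. Sums for blood, adipocyte, Schwann cell, macrophage and T cell markers overlapped between groups, with 0 markers at an unadjusted p under 0.05. Between the legs of animals A to D the blood sum differed by -1.38, 0.31, 0.94 and 1.88, largest in animal D. The adipocyte sum differed by 3.58, -3.82, -1.89 and 0.94, and the Schwann cell sum by -0.27, 0.05, -1.65 and -0.02. For macrophage markers it was 0.02, -0.11, -0.44 and 0.25, and for T cell markers -0.50, -0.27, -0.18 and -0.37. The part of these sums in the values of the genes was not tested either. The muscle-fibre markers, with Acta1 and Myh4 at the ceiling, give a sum that is near its limit and is not compared between groups.

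Genes around the ULK complex and ATG9/ATG2 were taken as 6 lists of 56 genes in all. With an unadjusted p under 0.05, 7 were higher and 2 lower in MYTHO legs, 16.1% of the 56 beside 12.4% of all probe sets, and 0 passed after adjustment. The groups did not overlap for 6 of the 56 (Becn1, Map1lc3a, Atg4c and Atg12 higher, Atg4a and Rheb lower in MYTHO legs), beside 6.46% of all probe sets. Over all probe sets 1068 were higher and 1683 lower at that level. Centring each array on its median made this 1353 and 1408, with the list genes still at 7 higher and 2 lower, and quantile normalization 1287 and 1531, with 8 and 2.

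Upstream of the kinase, 3 of 16 genes of mTORC1 and AMPK had an unadjusted p under 0.05. Deptor, an inhibitory subunit of mTOR complexes, had a log2 fold change of 0.57 (adjusted p = 0.366). Prkab1, the AMPK β1 subunit, stood at 0.56 (adjusted p = 0.390), and Stk11, which encodes the AMPK-activating kinase LKB1, at -0.55 (adjusted p = 0.333). The median of the list was 0.01, so genes of either direction were about balanced.

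Next to ATG9 and ATG2, 1 of 7 partner genes had an unadjusted p under 0.05. Wipi1, which encodes a protein that binds phosphatidylinositol 3-phosphate on the forming membrane, had a log2 fold change of 0.47 (adjusted p = 0.388), beside a list median of -0.14. Among 8 genes of the class III PI3-kinase, the complex that ULK1 acts on next, 1 reached that level. This was Becn1, its Beclin 1 subunit, at 0.47 (adjusted p = 0.354) with a list median of 0.01.

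Furthest downstream, 4 of 16 genes of the ATG8 proteins and their conjugation had an unadjusted p under 0.05. Map1lc3a, which encodes an LC3 protein, gave 10.42, 10.16, 9.74 and 11.17 in scrmb legs A to D and 11.36, 12.10, 11.18 and 11.40 in MYTHO legs A to D. Its groups met without overlapping, between scrmb D and MYTHO C, and the log2 fold change was 1.14 with SE 0.30 (limma adjusted p = 0.164). With a ratio of 2.20 and an unadjusted limma p of 0.00257 it passed the study's threshold, as 1.51% of all probe sets did. No other list gene passed it. Between the legs it differed by 0.94, 1.94, 1.44 and 0.23 in animals A to D, smallest in animal D, where the slow-fibre marker sum also differed least. The part of these markers in the Map1lc3a values was not tested. Without scrmb D the change of Map1lc3a was 1.40 with an adjusted p of 0.0443, the one value under 0.05 in a range up to 0.580 over all alternatives. Atg4c was higher by 0.55 (adjusted p = 0.267), and Atg4a, taken from the brighter of its 2 probe sets, was lower, at -0.62 (adjusted p = 0.241). Both encode cysteine proteases that process ATG8 proteins. Atg12, a ubiquitin-like conjugation protein, was at 0.37, and the list median was 0.16. With the animal as a replicate block Atg12 was no longer at that level (unadjusted p = 0.0682) and Atg7, which encodes the activating enzyme of both conjugation systems, was (0.0451, against 0.0800 without the block), so that the count stayed at 4 with 1 gene exchanged.

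Relatives of the kinases outside the complex (Ulk3, Ulk4 and Stk36) had 0 of 3 genes at that level. Ulk3 came closest, at 0.34 with an unadjusted p of 0.0748. Of 6 transcription factors known to act on autophagy genes 0 had an unadjusted p under 0.05. Tfe3 had the lowest, 0.0902, at a log2 fold change of 0.46.

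**Figure D5:**
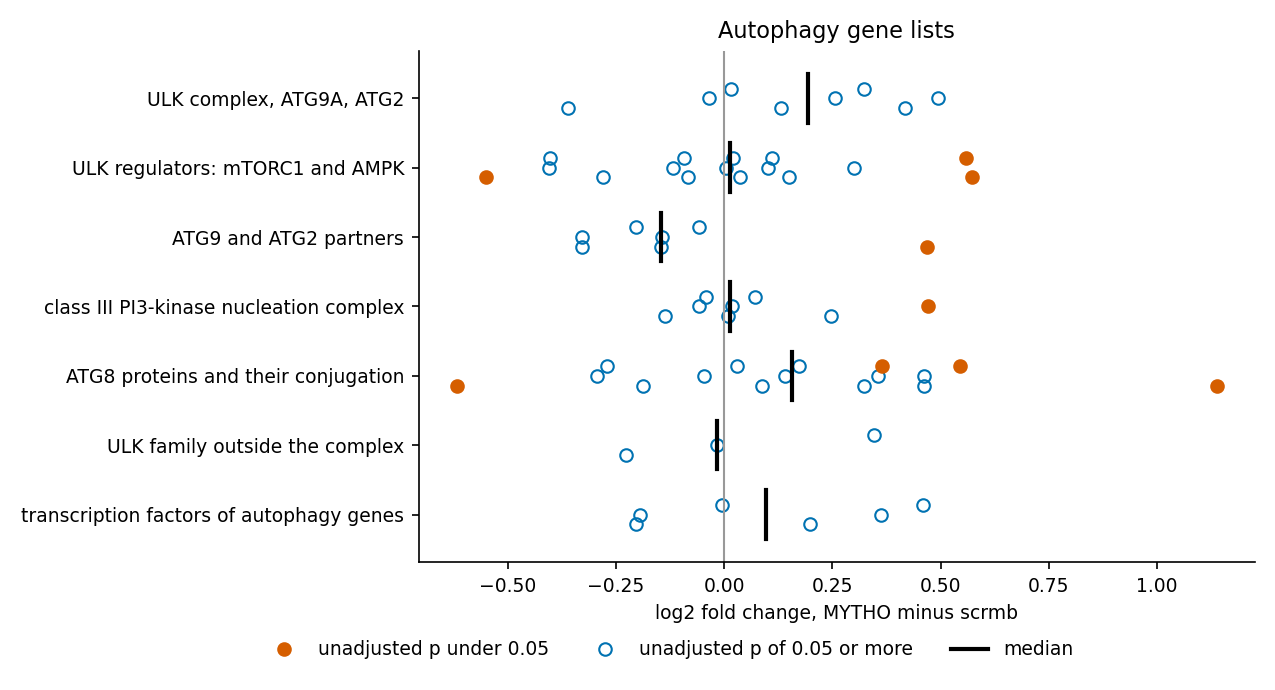
Log2 fold change, MYTHO minus scrmb (horizontal axis), of the 8 genes (top row) and of 6 lists of autophagy genes. Filled points have an unadjusted p under 0.05, open points do not, and bars are medians. The top row has no filled point, and the farthest point, at 1.14, is Map1lc3a.

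The genes most like each of the 8 over the arrays were found by Pearson's r of log2 signal among the 10388 others with 1 symbol and a mean signal over the median of all rows. All values come from the same 8 arrays and are a description. They are the highest picked from that many genes. How high r runs for unrelated genes, and any shared function, was not tested. Ulk1 ran most closely with Fat4 (r = 0.968), Noxred1 and Acacb, and Ulk2 with Lrrc47 (r = 0.972), Taok2 and Anxa6. For Rb1cc1 they were Arhgap32 (r = 0.976), Adam4 and Zbed4, and for Atg101 Nus1 (r = 0.959), Cntn3 and Fancg. Atg13, itself below that median and so set against 10389 genes, was closest to Tgfb2 (r = 0.950), Yeats4 and Thap2. Atg9a was closest to Cdc42ep1 (r = 0.980), Nr3c2 and Sec24c. Atg2a ran with Ndufb7 (r = 0.977), a subunit of respiratory complex I, Mrpl38, of the mitochondrial ribosome, and Sgca, which encodes α-sarcoglycan. Atg2b ran with P2rx5 (r = 0.976), Cd63 and Gm3763. No gene was shared between these sets of 3.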

How the data were processed

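Total RNA of 8 muscles was measured on Clariom S Mouse arrays. The authors deposited log2 signals per probe set, made per the labels with Transcriptome Analysis Console 4.0.1 at default parameters, with RMA and Affymetrix Expression Console also named in the submitters' processing notes. Columns of the authors' group averages, fold changes, p-values and FDR were not used. Signals were tested with limma 3.58.1 (lmFit, eBayes, R 4.3.3) without pairing, two-sided, since the study's microarray methods name no pairing (its general statistics use paired tests for related groups), with Benjamini-Hochberg adjustment over 22206 probe sets and no filter. Pair differences were tested by exact permutation. The code was tested on simulated data.

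Columns carry numbers, each shared by a scrmb and a MYTHO column. They were read as animal numbers that pair the legs, which the labels do not state. Deviations from the group means correlated between legs at 0.00266, -0.00145, 0.135 and 0.0871 for animals A to D. The highest correlation with another animal was 0.104, 0.0860, -0.0201 and 0.00181, so that for A and B it was above that between their own legs. Members and lists were chosen with earlier results of these data known. Named genes were the 8 genes, the target, up to 3 genes per list with an unadjusted p under 0.05 (otherwise the gene with the lowest p) and the 3 most alike genes per member. Atg12, Atg7 and Rheb were added after their values were seen. The array's ceiling, log2 19.93, held none of the 8 genes. The number of arrays limits the precision.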

Additional observations from a re-analysis of the deposited data

Results flagged for a closer look

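In 1 of 58 groups of 4 arrays examined, 1 array stood far from the other 3: D230025D16Rik in MYTHO leg C was 8.80, while the other MYTHO legs lay between 8.08 and 8.20, a gap of 0.833 of the group's range. Chance gives about 1 in 20 such groups. None of the 8 autophagy initiation genes had such an array.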

How the results depend on the processing

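With 4 muscles per group and variances moderated towards those of all probe sets, all 95% intervals of the 8 genes held 0. They were at least 0.717 wide on the log2 scale, so that small changes were not detectable. No alternative gave any of them an adjusted p under 0.05 or a pass at the study's threshold. Counts over all probe sets moved more. At an adjusted p under 0.05, 2 higher and 4 lower became 14 and 140 without scrmb D and 0 and 1 without any other single array. With the trend and robust settings of eBayes they became 30 and 130. At the study's threshold, 58 higher and 277 lower became 98 and 484 without scrmb D and 38 and 241 without scrmb C. With the animal as a replicate block the lowest adjusted p was 0.426 (Atg2a), and the block changed no call among the 8. Among list genes at an unadjusted p under 0.05 it exchanged Atg12 for Atg7 and changed no other. Ulk2, Atg101, Atg9a, Atg2a and Atg2b kept their direction under all alternatives run. With each array in turn left out, Ulk1 lay between -0.0258 and 0.248, Atg13 between -0.182 and 0.232 and Rb1cc1 between -0.105 and 0.00833 on the log2 scale. The ranges were 0.205 to 0.438 for Ulk2, 0.271 to 0.581 for Atg101, 0.103 to 0.420 for Atg9a, 0.305 to 0.738 for Atg2a and -0.467 to -0.267 for Atg2b. The number of the 8 with an unadjusted p under 0.05 ran from 0 to 3, with 3 without scrmb D. Of all probe sets 1255 were higher and 1941 lower at that level without scrmb D, against 1068 and 1683 with all arrays. List counts at that level ran from 1 to 3 (ULK regulators), 3 to 5 (ATG8) and 0 to 1 (the other 4 lists), each without a single array. Several single arrays changed a list's count, and the cause was not tested.

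The following were chosen after seeing the data. Without both legs of animal A, Atg13 was -0.177, Ulk1 minus Ulk2 0.0767 and the ATG9/ATG2 partner count 0. Without animal B, 1 of the 8 (Atg101) had an unadjusted p under 0.05, the partner and nucleation counts were 0 and the ATG8 count 2. Without animal C the counts of ULK regulators, partners and nucleation genes were 0. Without animal D, with or without the replicate block, Atg13 was -0.0533 and Rb1cc1 0.0167. There 2 of the 8 (Atg2a and Atg2b) had an unadjusted p under 0.05. The counts were 1 for ULK regulators, 2 for ATG8 and 2 for transcription factors. Of all probe sets 947, 599, 717 and 1202 were higher at that level without animals A to D in turn, and 1440, 1156, 1113 and 1790 lower. With all arrays these were 1068 and 1683, and without animal D but with the block 1239 and 1827. With that block and without animal D, D230025D16Rik was -2.76 with an adjusted p of 0.0921. Chosen earlier, median centring gave 0.005 for Rb1cc1, and quantile normalization 1 gene of the ULK family at an unadjusted p under 0.05. Blocking on the labels' replicate numbers was not run, since columns do not carry them. Atg13 and Ulk3 have no value in the upper 50% of probe sets by signal. No gene of the 8 had a further probe set to try.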
